A study of Mus musculus with 7 samples.

Results

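The cells described here are 522 bone marrow cells of the pool WBM_2 that carried RNA of Ccl22, Shisa8 and Ly6k, out of 21233 cells kept in that pool and 56677 kept in all 7 libraries of the series. A cell was kept with at least 300 genes and under 10% mitochondrial UMIs, where a UMI is 1 counted RNA molecule. A kept cell of the libraries WBM_2a, WBM_2b or WBM_2c was a member when the 3 genes together gave at least 3 UMIs and at least 2 of them were detected. The members were thus chosen by their UMI counts of these 3 genes, and the levels of these genes, and of every other gene in members set against other cells, are a description of the chosen cells with no test.

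The series holds bone marrow cells of mice (femur, tibia, hips and spine), freed of red cells, in 7 droplet libraries of 4 pools. Its title concerns inflammation and tumour plasticity in myeloid transformation. Within a pool each sample was marked by its own hashtag, an antibody that carries a DNA barcode, and in WBM_2 the 5 hashtags are HRO.7, HRO.8, HRO.9, HR.AE and WTO.4. The sources used here do not explain the prefixes, give no genotype, age, sex or treatment for these samples, and do not tie a hashtag to 1 animal. A state, TET2-mutated chronic, is named in the series text for HRO.5 and HRO.6, and neither is in this pool. WBM_2a, WBM_2b and WBM_2c hold the same 5 hashtags, so each hashtag sample is 1 sample seen in 3 libraries, and no test between samples was possible. Intervals are exact 95% intervals. The share that a count of 0 allows is given as 3 counts of the total, which is not the bound of such an interval. Both cover counting error only.

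Ccl22 encodes a chemokine that attracts cells with the receptor CCR4 and is known from dendritic cells, macrophages and activated B cells. Ly6k encodes a small surface protein of the Ly6 family, Shisa8 a membrane protein studied in neurons, and Cd36 a scavenger receptor for fatty acids and lipoproteins. B cells are known by the antigen receptor chains Cd79a and Cd79b, the surface protein Ms4a1 and the transcription factors Pax5 and Ebf1. Each B cell joins 1 set of variable (V) gene segments into its receptor, and its daughter cells inherit that choice.

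The members made up 2.46% of the kept WBM_2 cells (95% interval 2.25% to 2.68%). WBM_2a held 200 members, WBM_2b 161 and WBM_2c 161. The same thresholds found 2 of 14993 cells in WBM_1, 0 of 14702 in WBM_3, and 3 of 5749 in WBM_4. None of those 5 cells had a Cd36 UMI, and 1 of them, with 156860 UMIs, had all 10 B lineage markers. The 3 WBM_2 libraries shared 48 barcodes among kept cells, and no barcode was a member in more than 1 library.

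Ccl22 averaged 1692 CPM (the usual unit of UMIs scaled to depth, here over the summed UMIs of the cells) in members and 0.88 CPM in the other kept WBM_2 cells, and was found in 78.4% of members and 0.81% of other cells. Ly6k reached 566 CPM in members and 5.35 CPM in other cells, and Shisa8 463 CPM in members and 1.01 CPM in other cells. Cd36, which the rule did not read, reached 486 CPM in members and 4.59 CPM in other cells, with a UMI in 93.7% of members and 2.29% of other cells. The genes lie, in the mouse build GRCm38, at chr8:94745590-94751699 on the plus strand (Ccl22), chr15:82206168-82212815 on the minus strand (Shisa8), chr15:74796874-74799986 on the minus strand (Ly6k) and chr5:17781690-17888801 on the minus strand (Cd36). Ccl22 varied most from cell to cell, with a lower quartile of 1 UMI, a median of 7.5 UMIs and a highest value of 259 UMIs per member. Shisa8 and Ly6k both had a median of 6 UMIs, and so had Cd36.

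Near the threshold, 18 members had exactly 3 UMIs of the 3 genes, and 11 of them carried at least 5 of the 10 B lineage markers. Just outside it, 16 cells had 2 UMIs spread over 2 of the genes, and 12 of these carried at least 5 B lineage markers. A further 117 cells had at least 3 UMIs of a single gene, and 16 of them reached 5 B lineage markers. Of the members, 384 had all 3 genes, 113 had no Ccl22 UMI, 20 had no Shisa8 UMI and 5 had no Ly6k UMI. Members were deeper than other cells, with a median of 12258.5 UMIs in members and 7389 UMIs in other cells, so shares of cells are also given after each cell was thinned to 3000 UMIs. The thinning left out 6 members and 3819 other cells. Thinned shares with a UMI were 63.0% in members and 0.28% in other cells for Ccl22, and 71.7% in members and 0.38% in other cells for Shisa8. For Ly6k they were 72.9% in members and 0.98% in other cells, and for Cd36 69.6% in members and 0.95% in other cells. In cells gated as T cell by at least 3 T cell markers, which should lack these genes, thinned shares were 0 for Ccl22 and Shisa8. They were 1.93% for Ly6k and 0.30% for Cd36. Cd36 was not limited to the members. Without thinning it was detected in 71.1% of the 128 other cells gated as conventional dendritic, at a median depth of 20317.5 UMIs. Of these 128 cells, 78 were from HRO.7 and 31 from HRO.8.

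Nearly all members with a single hashtag belonged to HRO.7 or HRO.8. HRO.7 marked 344 members, which is 6.22% of its 5530 kept cells (5.60% to 6.89%). HRO.8 marked 100 members, which is 3.99% of its 2505 cells (3.26% to 4.83%). HRO.9 marked 3 members among 4831 cells, WTO.4 marked 1 among 3451, and HR.AE none among 1401 cells, which allows a share of up to 0.214%. Of the 448 members with a single hashtag, HRO.7 took 76.8% (72.6% to 80.6%) and HRO.8 22.3% (18.5% to 26.5%).

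HRO.7 was above HRO.8 in each library, with intervals that overlapped in WBM_2a and WBM_2b but not in WBM_2c. In WBM_2a, members were 6.50% of HRO.7 cells and 4.98% of HRO.8 cells. In WBM_2b they were 5.70% of HRO.7 and 3.41% of HRO.8 cells, and in WBM_2c 6.46% of HRO.7 and 3.38% of HRO.8 cells.

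**Figure D1:**
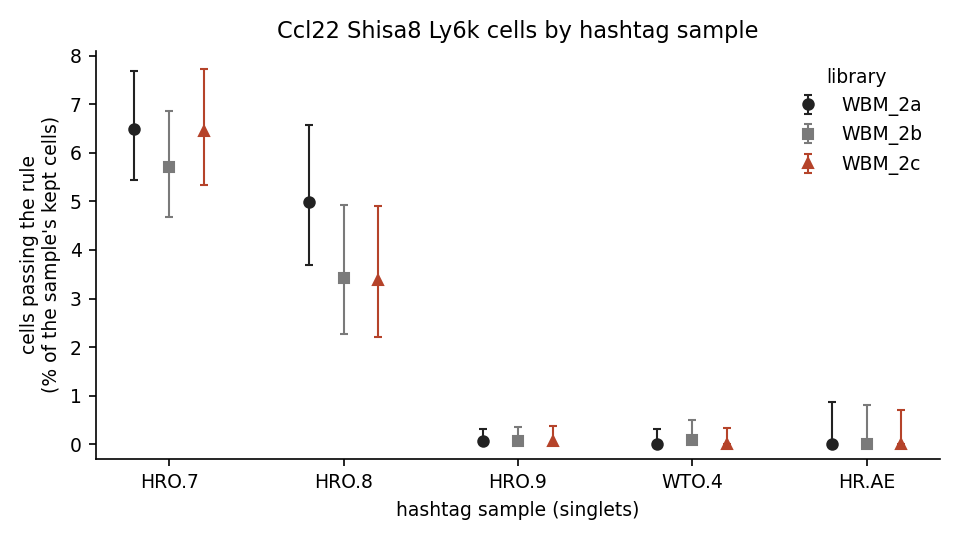
Members as a percentage of the kept cells of each WBM_2 hashtag sample (y axis), with 1 point per library and exact 95% intervals. HRO.7 lies at 5.70% to 6.50% and HRO.8 at 3.38% to 4.98%, while HRO.9, WTO.4 and HR.AE lie at or near 0.

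The hashtag counts of HRO.7 and HRO.8 members were well apart. The 344 HRO.7 members had a median of 1080 counts of the HRO.7 hashtag and 5 of the HRO.8 hashtag. The 100 HRO.8 members had a median of 718.5 counts of HRO.8 and 16 of HRO.7, and the other HRO.8 cells also had 16 of HRO.7. A further 73 members carried 2 hashtags and 1 carried none. HRO.7 or HRO.8 was part of 71 of those 73 hashtag pairs, and the commonest was HRO.7 with HRO.8, in 26 members.

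The 5 members outside HRO.7 and HRO.8 that carried 1 hashtag or none were mixed. The WTO.4 cell had 25 Ly6k UMIs, no Ccl22 UMI and Igkc, the kappa light chain, in 54.0% of its UMIs. Its hashtag call was weak, with 15 WTO.4 counts and 15 HRO.7 counts. Other WTO.4 cells had a median of 86 WTO.4 counts and 16 HRO.7 counts. The 3 HRO.9 members had 6, 2 and 3 B lineage markers and no Cd36 UMI. The member without a hashtag call had 74 HRO.7 counts and all 3 genes of the rule.

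Xist, which female cells express from the silenced X chromosome, was detected in 84.0% of HRO.7 members and 83.6% of the other HRO.7 cells. It was detected in 89% of HRO.8 members and 79.0% of the other HRO.8 cells. Ddx3y, a gene of the Y chromosome, was seen in 1.16% of HRO.7 members and 2% of HRO.8 members, against 29.4% of other HRO.9 cells and 72.2% of HR.AE cells. In both genes the members were on the side of the other cells of their own hashtag.

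The rule genes and Cd36 had like levels in HRO.7 and HRO.8 members, with Ccl22 furthest apart. Ccl22 was found in 77.6% of HRO.7 members with a median of 7 UMIs, and in 83% of HRO.8 members with a median of 10 UMIs, at 1629 CPM in HRO.7 and 2177 CPM in HRO.8. Shisa8 was at 483 CPM in HRO.7 and 501 CPM in HRO.8 members, and Ly6k at 599 CPM in HRO.7 members and 590 CPM in HRO.8 members. Cd36 was at 537 CPM in HRO.7 members and 536 CPM in HRO.8 members. Over libraries, Ccl22 in members was 1919 CPM in WBM_2a, 1578 CPM in WBM_2b and 1504 CPM in WBM_2c.

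The members were B-lineage-like by all 10 markers of the list. A gene counts as higher or lower here when members and other cells differ by at least 4 fold in summed CPM, in the same direction in each of the 3 libraries, with at least 50 CPM in the higher group. Of 3470 genes compared, 174 were higher in members (5.01%) and 284 lower (8.18%). The 174 include the 3 genes of the rule. The B lineage list had 10 of 10 genes higher, with a median log2 ratio of 5.72, against 0.03 over all 3470 genes. Since the members were chosen within these cells, the counts describe them and nothing is read from the percentages.

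Cd79a was at 2507, 2299 and 2554 CPM in members of WBM_2a, WBM_2b and WBM_2c, and at 24.2 CPM in the other cells. It was found in 97.5% of members and 2.24% of other cells after thinning. Ms4a1, the surface protein CD20, was at 568 CPM in members and 10.3 CPM in other cells, Pax5 at 407 CPM in members and 3.97 CPM in other cells, and Ebf1 at 250 CPM in members and 9.39 CPM in other cells. Fcmr, the receptor for IgM, was at 743 CPM in members and 3.38 CPM in other cells. All of these genes were frequent in members and rare elsewhere in the pool.

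At least 5 of the 10 markers were detected in 507 members (97.1%, 95.3% to 98.4%) and in 357 of 20711 other cells (1.72%). After thinning, 84.5% of members reached 5 markers. The share was 98.0% in HRO.7 members, 98% in HRO.8 members and 97.3% in members with 2 hashtags. Each cell was then given the list of which it showed most markers, with a minimum of 3. By this gate 499 members (95.6%) were B lineage, 6 monocyte, 5 neutrophil, 3 plasma cell and 1 T cell, and 8 had no call.

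**Figure D2:**
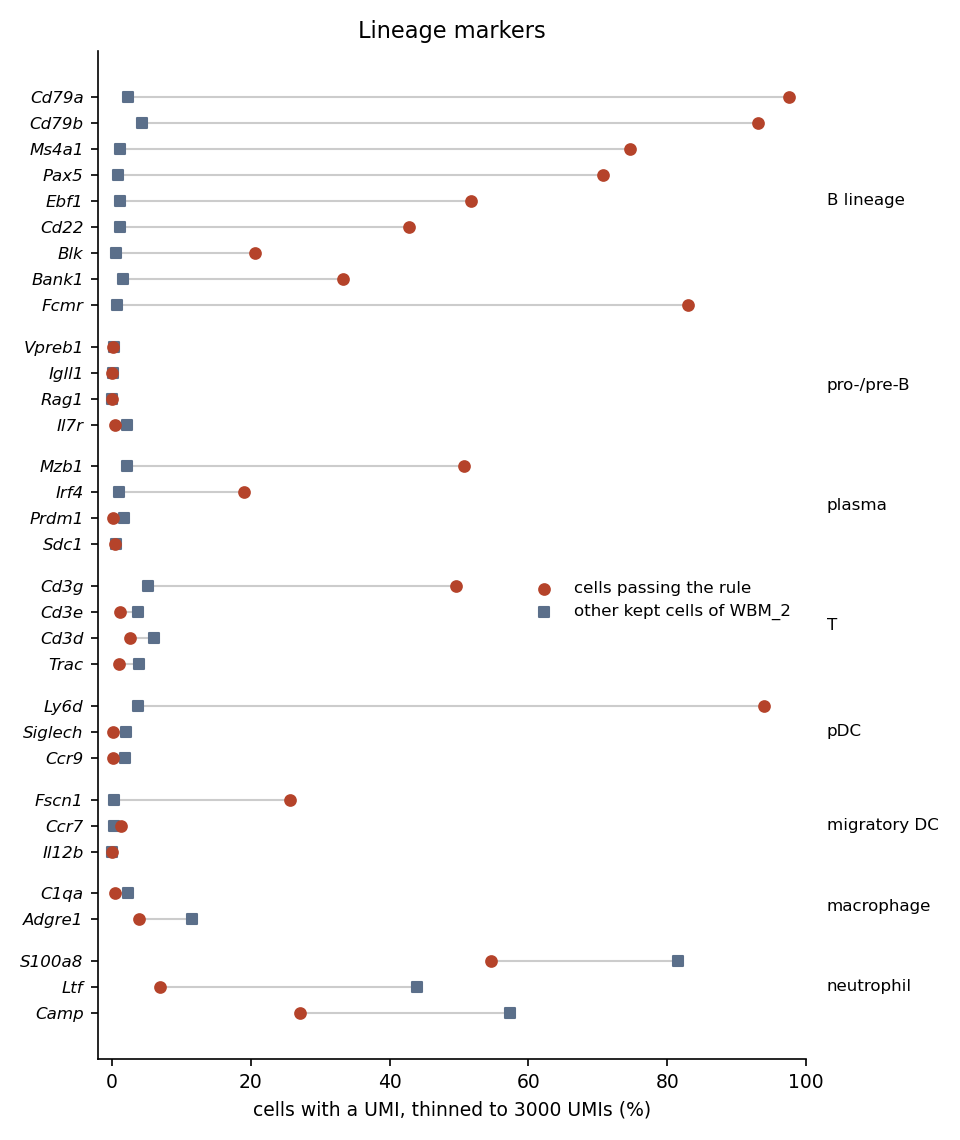
Percentage of cells with a UMI of lineage markers after thinning to 3000 UMIs per cell (x axis), in members and in other kept WBM_2 cells. B lineage markers such as Cd79a (97.5% of members, 2.24% of other cells) lie to the right in members, while Cd3d (2.52% of members, 6.06% of other cells) does not.

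Genes of the stages before the mature B cell were mostly low, and plasma cell genes were split. Of 9 pro-B and pre-B genes, 4 had no UMI in members, and the list summed to 34.4 CPM in members and 31.0 CPM in other cells. Vpreb3, which aids assembly of the early receptor, was detected in 19.5% of members. Of 8 plasma cell genes, 4 could be compared, and of these Mzb1 and Irf4 were higher. Xbp1 was found in 34.1% of members, at 58.0 CPM, and did not pass. Derl3 was found in 23.6% of members, at 25.4 CPM, and was too low to be compared. Mzb1, a chaperone of antibody secretion, was at 418 CPM in members and 21.9 CPM in other cells. The transcription factor Irf4 was at 76.5 CPM in members and 3.32 CPM in other cells. Neither passed 4 fold against the 338 other cells gated as B lineage, which had Mzb1 at 485 CPM and Irf4 at 44.4 CPM. The plasma cell regulator Prdm1 was at 0.65 CPM in members and 5.96 CPM in other cells, and the surface marker Sdc1 at 3.36 CPM in members and 2.15 CPM in other cells. Jchain, the joining chain of secreted IgM and IgA, was seen in 29 members, 9 of them with 2 hashtags, and 5 cells held 98.8% of its 2469 UMIs.

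Lists of other lineages were split, with some genes high in members and others near 0. Cd3g, a chain of the T cell receptor complex, was at 256 CPM in members and 45.6 CPM in other cells and was found in 89.1% of members. Its partners were low, with Cd3d at 6.99 CPM in members and 49.99 CPM in other cells. Cd3e was at 2.72 CPM in members and 18.4 CPM in other cells. Also of the T cell list, Cd8b1 was found in 23.9% of members, at 21.0 CPM, and was too low to be compared. Trac, Trbc2, Cd4 and Cd8a were found in at most 3.07% of members each. Of the plasmacytoid dendritic list, Ly6d was at 1637 CPM in members and 60.5 CPM in other cells, and Tcf4 at 605 CPM in members and 64.5 CPM in other cells. Bst2 was found in 89.8% and Runx2 in 42.7% of members. Bst2 did not pass 4 fold and Runx2 was too low in both groups to be compared, at 281 CPM of Bst2 in members and 186 CPM in other cells, and 43.6 CPM of Runx2 in members and 46.5 CPM in other cells. Siglech, a defining receptor of those dendritic cells, was detected in 0.19% of members, and Ccr9 and Cox6a2 in 0.57% each. Of the migratory dendritic list, Fscn1, an actin bundler, was at 89.2 CPM in members and 1.03 CPM in other cells, and Il4i1, an amino acid oxidase, at 56.8 CPM in members and 1.25 CPM in other cells, and Socs2 was lower, at 6.34 CPM in members and 51.7 CPM in other cells. Tmem123 was at 155 CPM in members and 49.97 CPM in other cells and did not pass, and Relb, at 24.6 CPM in members and 12.7 CPM in other cells, was too low to be compared. The chemokine receptor Ccr7 was found in 3.07% of members, Nudt17 in 0.38%, and Cacnb3 and Il12b in none. None of Cd3g, Ly6d, Tcf4, Fscn1 and Il4i1 passed 4 fold against the 338 other cells gated as B lineage. Those cells had Cd3g at 108 CPM, Ly6d at 1026 CPM, Tcf4 at 457 CPM, Fscn1 at 32.9 CPM and Il4i1 at 52.5 CPM.

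The myeloid lists were low. All 9 neutrophil genes were lower in members, summing to 6453 CPM in members and 107305 CPM in other cells. Of 8 monocyte genes 5 were lower, and of 10 macrophage genes the complement genes C1qa and C1qb were. Of the 20711 other kept cells, 11281 were gated as neutrophil and 4545 as monocyte. Against the other B lineage cells, none of the 6 neutrophil and 4 monocyte genes compared was lower. The neutrophil RNA in members was concentrated in few cells. In the median member the neutrophil list took 719 CPM, below the 1406 CPM of the median cell gated as T cell, which should lack these genes, and 10 members had over 10% of their UMIs from this list.

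Genes that mark B cell subsets did not follow a single list. Bhlhe41 was at 192 CPM in members and 2.12 CPM in other cells, and Zbtb32 at 161 CPM in members and 2.02 CPM in other cells. Both are transcriptional repressors, the first known from B-1 cells and the second from memory B cells. Cd5, the classical B-1a marker, was found in 16.9% of members. Dtx1, a regulator of Notch signalling known from marginal zone B cells, was at 57.7 CPM in members and 0.69 CPM in other cells, with the complement receptor Cr2 in 0.38% of members. Mef2b, a transcription factor of germinal centre B cells, was at 239 CPM in members and 1.30 CPM in other cells. The age-associated B cell list showed Fcrl5 at 76.2 CPM in members and 1.72 CPM in other cells and Tbx21 in 17.2% of members. None of Bhlhe41, Zbtb32, Dtx1, Mef2b and Fcrl5 passed 4 fold against the 338 other cells gated as B lineage. Those cells had Bhlhe41 at 106 CPM, Zbtb32 at 95.8 CPM, Dtx1 at 43.8 CPM, Mef2b at 80.8 CPM and Fcrl5 at 65.8 CPM. In the HRO.7 cells of that gate they were at 185, 248, 62.6, 141 and 162 CPM, in the same order.

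Among 17 genes of NF-kB and co-stimulation, 3 were higher in members, with a median log2 ratio of 1.38 over the 11 genes compared. Cd83, an activation marker, was at 189 CPM in members and 3.12 CPM in other cells. The NF-kB regulator Nfkbid was at 95.6 CPM in members and 15.8 CPM in other cells. The co-stimulatory receptor Cd40 was at 66.8 CPM in members and 11.9 CPM in other cells. None of the 3 passed 4 fold against the other B lineage cells, which had Cd83 at 76.7 CPM, Nfkbid at 31.7 CPM and Cd40 at 55.4 CPM. Of this list only Ebi3 did, at 125 CPM in members and 28.8 CPM in those cells. Of 8 chemokines, Ccl17, which shares the receptor CCR4 with Ccl22, was at 74.5 CPM in members and 0.49 CPM in other cells, whereas Ccl4, Cxcl9 and Cxcl10 were lower. Ccl17 was at 22.5 CPM in the other B lineage cells, where it did not pass, and at 73.0 CPM in the HRO.7 cells among them. Of 10 class II presentation genes only H2-DMb2 passed, at 69.9 CPM in members and 12.2 CPM in other cells. The other B lineage cells had more of it, at 168 CPM, with 83.4 CPM in the HRO.7 cells among them. Against the other B lineage cells none of the 10 genes passed 4 fold, and their median log2 ratio was -1.05. The list summed to 5089 CPM in members and 9288 CPM in those cells. No gene of 15 type I interferon genes was higher, and the median log2 ratio of the 4 compared was -1.27. None of 14 cell cycle genes passed in either direction, and the proliferation marker Mki67 was detected in 36.8% of members and 39.6% of other cells after thinning.

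The families of the rule genes did not share a direction. Of 15 Ly6 genes in the files, Ly6d and Ly6k were higher in members, and Ly6c2 and Ly6g, which mark monocytes and neutrophils, and Ly6i were lower, with Ly6c2 at 152 CPM in members and 1426 CPM in other cells. Of 8 Shisa genes, 4 had no UMI in members and Shisa8 was the 1 that passed. Ly6k and Shisa8 are genes of the rule, so their calls were set by the choice of cells. Of 13 genes of lipid uptake and efflux, Cd36 was higher and the lipid droplet protein Plin2 lower, at 12.6 CPM in members and 118 CPM in other cells, and the median log2 ratio of the 6 compared was 0.01. Among 11 activation transcription factors, Egr3 was at 76.6 CPM in members and 11.7 CPM in other cells, and Irf4 was also higher, whereas Irf8 was lower, at 63.7 CPM in members and 273 CPM in other cells. Of 9 interferon gamma genes none was higher and Cxcl9 was lower, at 3.62 CPM in members and 117 CPM in other cells. Klf2, a factor of quiescent and recirculating lymphocytes, was found in 92.0% of members.

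By ratio alone, the highest genes included several known from other tissues. Grp, a gut and brain peptide, was at 146, 109 and 96.9 CPM in members of WBM_2a, WBM_2b and WBM_2c and at 0.06 CPM in other cells, with a UMI in 34.1% of members. Ncan, a brain proteoglycan, was at 108 CPM in members and 0.23 CPM in other cells, and Nid1, a basement membrane protein, at 131 CPM in members and 0.41 CPM in other cells. Cd70, the ligand of CD27, was at 99.6 CPM in members and 0.24 CPM in other cells. The other genes with the 15 highest ratios were Fam171b, Npw, Scn8a, Rbp4, Trpm5, 1810046K07Rik, Fcmr, Fras1, Tnfrsf19, Klhl14 and Mef2b. These ratios are against all other kept cells, few of which were gated as B lineage. Against the other B lineage cells alone, Cd70, Grp and Npw passed 4 fold. Fcmr and Mef2b did not, at 327 CPM of Fcmr and 80.8 CPM of Mef2b in those cells. In that comparison only 15 of 3306 genes were higher, the genes of the rule among them. The 10 lowest ratios were those of Olfm4, Cxcl9, Ncam1, Rflnb, S100a8, Ngp, BC018473, Lrg1, Fcnb and Cd177, most of them neutrophil genes. S100a8 was at 2143 CPM in members and 38548 CPM in other cells, of which 11281 were gated as neutrophil.

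The same comparison within HRO.7 alone found 192 genes higher (5.55%) and 308 lower (8.91%) of 3458. Its highest genes included Cx3cl1, a membrane-bound chemokine, and the antibody segment Igkv12-89. Cx3cl1 was at 78.6 CPM in HRO.7 members and 0.18 CPM in the other HRO.7 cells. BC018473, 1 of the 10 lowest genes in the whole pool, was near 0 throughout this sample, at 0.21 CPM in HRO.7 members and 0.53 CPM in the other HRO.7 cells.

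Of all gated groups of other WBM_2 cells, the 338 gated as B lineage were nearest to the members, with a rank correlation of 0.885 over 8678 genes. The plasmacytoid dendritic gate followed at 0.758 and the T cell gate at 0.741. These 338 cells came from WTO.4 (170), HRO.9 (57), HRO.7 (55), HRO.8 (9) and cells with 2 hashtags or none, and had a median of 3264.5 UMIs. Most of them come from other hashtag samples than the members. Of 3306 genes, 15 were higher in members (0.454%) and 48 lower (1.45%), and none of the 10 B lineage genes was among them. The 15 include Ccl22, Shisa8 and Ly6k, by which the members were chosen.

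Cd70 was at 99.6 CPM in members and 1.15 CPM in the other B lineage cells, and Grp at 120 CPM in members and 5.19 CPM in the other B lineage cells. Cx3cl1 was at 69.7 CPM in members and 4.04 CPM in the other B lineage cells, Cadm1, an adhesion molecule, at 209 CPM in members and 15.6 CPM in the other B lineage cells, and Serpinc1, antithrombin, at 84.6 CPM in members and 8.08 CPM in the other B lineage cells. Ppp1r14a, Cd300c and Npw completed the 8 highest besides the rule genes. On the lower side, the low-affinity IgE receptor Fcer2a was at 0.13 CPM in members and 55.4 CPM in the other B lineage cells, the repressor Bach2 at 3.11 CPM in members and 157 CPM in the other B lineage cells, the interleukin-7 receptor Il7r at 1.29 CPM in members and 66.9 CPM in the other B lineage cells, and Vpreb3 at 25.5 CPM in members and 493 CPM in the other B lineage cells. Rgs13, Rasgrp3, Rhoh and Bcl7a were the other named lower genes.

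The 55 B lineage cells of HRO.7 itself differed from the rest of the gate. In those HRO.7 cells Il7r and Rasgrp3 had no UMI, against 1.29 CPM of Il7r and 0.91 CPM of Rasgrp3 in members. Vpreb3 was at 25.5 CPM in members, against 52.2 CPM in the HRO.7, 770 CPM in the HRO.9 and 872 CPM in the WTO.4 cells of the gate, and Bach2 at 3.11 CPM in members, against 13.04 CPM in HRO.7, 122 CPM in HRO.9 and 346 CPM in WTO.4 cells. For both genes the HRO.7 cells of the gate stood closer to the members than to the HRO.9 and WTO.4 cells. Rgs13 was at 0.13 CPM in members, against 5.22 CPM in HRO.7, 403 CPM in HRO.9 and 0 in WTO.4 cells. Of the higher genes, Cd70 had no UMI in the HRO.7 cells of the gate, Cx3cl1 was at 10.4 CPM, Grp and Serpinc1 at 23.5 CPM and Cadm1 at 59.98 CPM, all below the members. With 55 cells, 1 UMI is 2.61 CPM, so these low levels rest on few counts.

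The HRO.7 cells of the B lineage gate that missed the rule still carried part of the pattern. Cd36 was detected in 74.5% of these 55 cells, Ly6k in 47.3%, Shisa8 in 38.2% and Ccl22 in 7.27%. In the 170 WTO.4 cells of that gate the shares were 2.94% for Cd36, 7.65% for Ly6k and 2.94% for Shisa8, and no cell had a Ccl22 UMI. In the 57 HRO.9 cells, Shisa8 was detected in 15.8%, Ly6k in 1.75%, Ccl22 in 1.75% and Cd36 in none. Median depth differed, at 6726 UMIs in the HRO.7, 5450 UMIs in the HRO.9 and 2316.5 UMIs in the WTO.4 cells of the gate, and its part in these shares was not tested.

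The members carried RNA of the IgM heavy chain and of both kinds of light chain, and 1 V segment led among the heavy and 1 among the kappa segments detected. After thinning, Ighm was detected in 98.6% of members and 18.4% of T cell gated cells, which should lack antibody RNA, and Igkc in 98.1% of members and 42.9% of T cell gated cells. The lambda constant gene Iglc2 was detected in 94.8% of members, 82.1% of the other cells gated as B lineage and 0.59% of T cell gated cells after thinning. It was at 1644 CPM in members, 1096 CPM in the other B lineage cells and 3.38 CPM in T cell gated cells. A lambda V segment was detected, without thinning, in only 28 members (5.36%). Iglc2 and Iglc3 are close copies, so the split of reads between them is uncertain. Ighg3, an IgG heavy chain, was detected in 37.6% of members, 10.6% of the other cells gated as B lineage and 0.59% of T cell gated cells after thinning. Ighd, the IgD heavy chain, was detected in 33.9% of members, 31.8% of the other B lineage cells and 0.15% of T cell gated cells after thinning. Ighg1 was found in 0.19% of members without thinning.

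V segment RNA was sparse. At least 1 kappa V segment was detected in 334 members, and Igkv12-89 was among those of 76.3% of them. More than 1 kappa segment was counted in 117 of the 334, and in 73 of the 215 HRO.7 members with any. Igkv12-89 made up 42.1% of the kappa V UMIs in members, 59.4% in HRO.7 members and 69.7% in HRO.8 members. A heavy V segment was detected in 111 members, of which 5 had more than 1, and Ighv1-55 was among those of 81.1% of them. Ighv1-55 made up 55.3% of the heavy V UMIs in members. These are the segments shown here, since they led in members of both HRO.7 and HRO.8. Both sequences are coding stretches of the germline V exon in GRCm38, from the GENCODE M21 annotation's transcripts, written 5′ to 3′ in the sense of the gene. Capitals mark the in-frame run TATTACTGT, which codes for the conserved Tyr-Tyr-Cys stretch just before the variable loop CDR3. Igkv12-89 lies at chr6:68834846-68835143 and Ighv1-55 at chr12:115208095-115208394, both on the minus strand.
Igkv12-89: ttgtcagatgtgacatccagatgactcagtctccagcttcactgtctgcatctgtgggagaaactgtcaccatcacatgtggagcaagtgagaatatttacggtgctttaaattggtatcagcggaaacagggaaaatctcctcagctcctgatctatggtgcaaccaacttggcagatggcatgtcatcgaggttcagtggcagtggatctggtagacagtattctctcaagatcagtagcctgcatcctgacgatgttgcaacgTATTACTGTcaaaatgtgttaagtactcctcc
Ighv1-55: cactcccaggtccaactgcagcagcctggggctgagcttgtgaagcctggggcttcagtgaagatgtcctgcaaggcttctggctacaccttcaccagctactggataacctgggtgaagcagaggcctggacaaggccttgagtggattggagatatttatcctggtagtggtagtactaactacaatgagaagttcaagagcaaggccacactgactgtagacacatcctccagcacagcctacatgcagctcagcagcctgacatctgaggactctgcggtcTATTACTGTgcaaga

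Identity to other segments was taken over the bases up to the end of the run in capitals, in an ungapped alignment at that run. Only segments that hold the same run were compared. By this measure Igkv12-89 was 86.9% identical to its closest relative among 56 kappa segments, Igkv12-46. Ighv1-55 was 94.9% identical to Ighv1-64, the closest of 88 heavy segments. How the authors' counting shared reads among such relatives is not given in the sources used here, so the assignment to Ighv1-55 in particular is uncertain.

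Igkv12-89 was detected in 255 members (48.9%, 44.5% to 53.2%). After thinning, 14.5% of members and 4.47% of the other cells gated as B lineage had it. The shares that follow are not thinned, and median depth was 12258.5 UMIs in members and 3264.5 UMIs in those other cells. Igkv12-89 was in 165 HRO.7 members (48.0%, 42.6% to 53.4%) and in 54 HRO.8 members (54%, 43.7% to 64.0%), and these intervals overlapped. Among the other cells gated as B lineage, it was in 14 of 55 from HRO.7 (25.5%), 1 of 9 from HRO.8, 0 of 57 from HRO.9, which allows up to 5.26%, and 4 of 170 from WTO.4 (2.35%). Of all 20711 other kept cells, 28 had a UMI of it (0.135%), and none of them was gated as T cell. The next kappa segment of the members was Igkv2-109, in 47 cells.

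Ighv1-55 was detected in 90 members (17.2%, 14.1% to 20.8%), in 57 from HRO.7 (16.6%) and 21 from HRO.8 (21%). Among the other B lineage cells it was in 5 of 55 from HRO.7 (9.09%), in none of 57 from HRO.9 and in none of 170 from WTO.4, which allows up to 1.76%. It was not limited to the members, since 17 of 60 HRO.9 cells gated as plasma cell (28.3%) also had it. Both segments were seen together in 52 members, 33 of them from HRO.7 and 15 from HRO.8. Ighv1-55 was in 20.4% of members with an Igkv12-89 UMI and in 14.2% of those without one, at median depths of 13175 UMIs with it and 11512 UMIs without it. Since V segment RNA is sparse here, a member without a UMI is not shown to lack the segment.

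**Figure D3:**
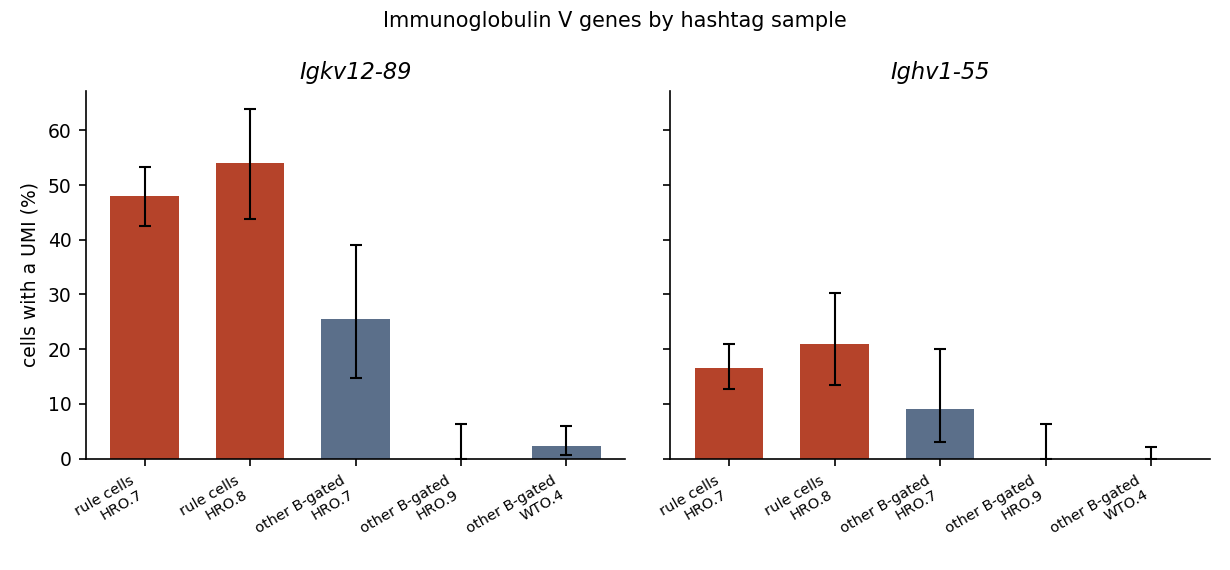
Percentage of cells with a UMI of Igkv12-89 and of Ighv1-55 (y axis) in members (rule cells) of HRO.7 and HRO.8 and in other cells gated as B lineage, with exact 95% intervals. Members lie at 48.0% and 54% for Igkv12-89 and at 16.6% and 21% for Ighv1-55, and the B lineage cells of WTO.4 at 2.35% and 0. Shares are not thinned, and median depth was 12258.5 UMIs in all members and 2316.5 UMIs in these WTO.4 cells.

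Members of HRO.7 and HRO.8 were close to each other across genes. Of 2858 genes with at least 50 CPM in 1 of them, 17 were past 2 fold higher in HRO.7 members (0.595%) and 0 lower, and 9 were past 4 fold higher (0.315%). With 1 sample each this is a difference between these samples with no test. The median absolute log2 ratio was 0.11 in members and 0.16 in the other cells of the same hashtags. Among those other cells, HRO.7 and HRO.8 were also the nearest pair of the 5 samples, with 1 gene past 2 fold higher in HRO.7 (0.0343% of 2916) and 1 lower (0.0343%), while the share past 2 fold in either direction ran in the other pairs from 3.06% (HRO.9 with WTO.4) to 36.5% (WTO.4 with HR.AE).

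Most of the 17 genes are known from neutrophils or other myeloid cells. S100a9 was at 1542 CPM in HRO.7 and 273 CPM in HRO.8 members, Camp, an antimicrobial peptide, at 744 CPM in HRO.7 members and 97.0 CPM in HRO.8 members, and Ccl5, a chemokine, at 71.4 CPM in HRO.7 members and 7.46 CPM in HRO.8 members. The neutrophil list summed to 4279 CPM in HRO.7 members and 764 CPM in HRO.8 members, but 5 cells held 72.0% of those UMIs in HRO.7. The median cell was alike, at 702 CPM in HRO.7 and 726 CPM in HRO.8 members. Without cells that had at least 10% of UMIs from this list, a choice made after seeing the data, 10 genes were past 2 fold. Without WBM_2a it was 33 genes. Dclk1, a microtubule-linked kinase, was at 52.0 CPM in HRO.7 and 9.70 CPM in HRO.8 members.

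**Figure D4:**
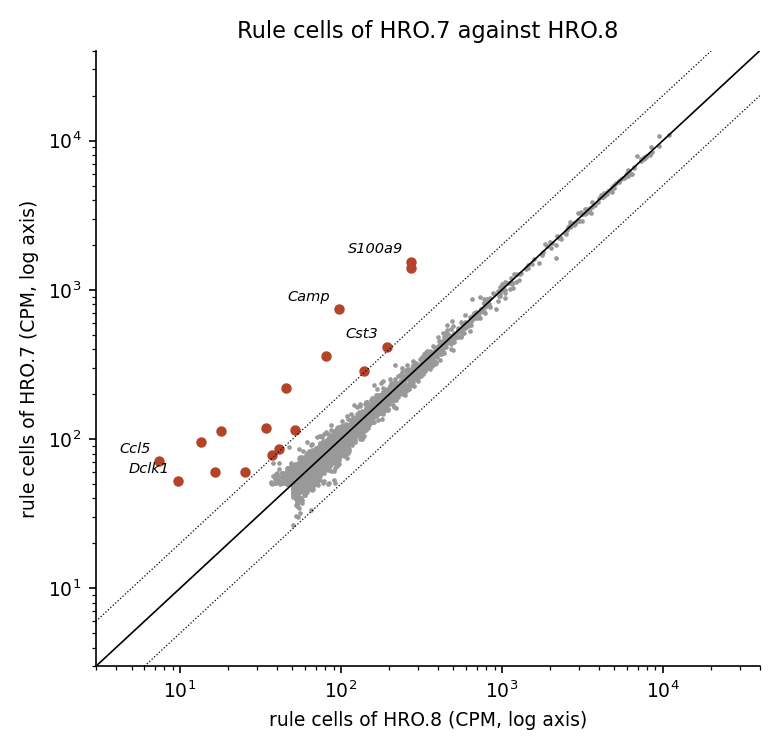
Summed CPM of each gene with at least 50 CPM in HRO.7 members (rule cells, y axis) and HRO.8 members (x axis), both on log scales. Genes such as S100a9 (1542 CPM in HRO.7, 273 CPM in HRO.8) and Ccl5 (71.4 and 7.46 CPM) lie above the line of equal levels.

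The wide range of Ccl22 was used, after seeing the data, to set 209 singly tagged members with at least 10 Ccl22 UMIs beside 97 with none. Median depth was 13293 UMIs in the Ccl22-high members and 11147 UMIs in the Ccl22-negative members. Of 1500 genes with at least 100 CPM, 13 were past 2 fold higher in Ccl22-high members (0.867%) and 18 lower (1.20%), each with the same sign in all 3 libraries and in HRO.7 and HRO.8.

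Among the higher genes, Cd70 was at 158 CPM in Ccl22-high members and 28.8 CPM in Ccl22-negative members, and Grp at 185 CPM in Ccl22-high members and 35.6 CPM in Ccl22-negative members. The kinase Pim2 was at 142 CPM in Ccl22-high members and 32.2 CPM in Ccl22-negative members, Irf4 at 115 CPM in Ccl22-high members and 35.6 CPM in Ccl22-negative members, Nfkbid at 127 CPM in Ccl22-high members and 56.0 CPM in Ccl22-negative members, and Odc1, the first enzyme of polyamine synthesis, at 417 CPM in Ccl22-high members and 167 CPM in Ccl22-negative members. Cd70 showed this in HRO.7 with a log2 ratio of 2.28 and in HRO.8 with 3.12. Among the lower genes, the small GTPase Gimap4 was at 39.5 CPM in Ccl22-high members and 186 CPM in Ccl22-negative members, Mef2c, a transcription factor, at 37.6 CPM in Ccl22-high members and 133 CPM in Ccl22-negative members, and Ly6a at 148 CPM in Ccl22-high members and 467 CPM in Ccl22-negative members. Iigp1 and Gbp2, GTPases that interferon gamma induces, were also lower, Iigp1 at 27.5 CPM in Ccl22-high members and 116 CPM in Ccl22-negative members and Gbp2 at 41.6 CPM in Ccl22-high members and 122 CPM in Ccl22-negative members. The interferon gamma list of 9 genes summed to 271 CPM in Ccl22-high members and 572 CPM in Ccl22-negative members, and its 4 genes of at least 50 CPM had a median log2 ratio of -1.22, against -0.01 over all genes. Jchain also passed, but on few cells. The B lineage list summed to 6376 CPM in Ccl22-high members and 6359 CPM in Ccl22-negative members. Other lists were less alike, with the monocyte list at 461 CPM in Ccl22-high and 735 CPM in Ccl22-negative members. The antibody constant genes were at 14916 and 28694 CPM, and the neutrophil list at 3996 and 3171 CPM. The 7 antibody constant genes of at least 50 CPM had a median log2 ratio of 0.30, so sum and median went opposite ways. The WTO.4 member, which had no Ccl22 UMI, had 54.0% of its UMIs from Igkc. Of all 113 members with no Ccl22 UMI, 92.0% had at least 5 B lineage markers. The part of the remaining cells in the lower genes was not tested.

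**Figure D5:**
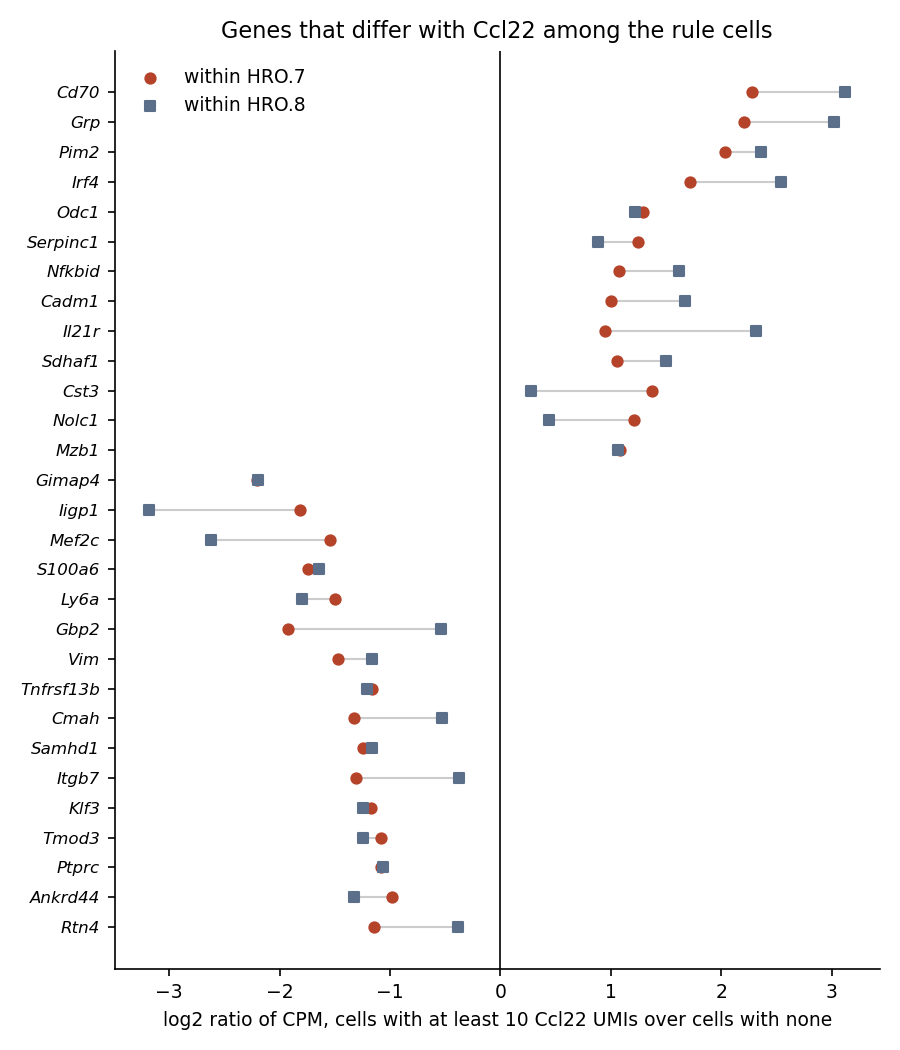
Log2 ratio of summed CPM (x axis) of members with at least 10 Ccl22 UMIs over members with none, for genes past 2 fold (not all are drawn), within HRO.7 and within HRO.8. Cd70 (2.28 in HRO.7, 3.12 in HRO.8) and Gimap4 (-2.20 and -2.19) lie on opposite sides of 0.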

How the data were processed

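Whole bone marrow of mice was profiled in 7 droplet libraries, and the 3 of pool WBM_2 were analysed here, the other pools only for the number of cells that pass the same rule. The authors deposited raw UMI counts per gene and barcode, with hashtag counts as further features in WBM_2. Per the file headers, the matrices of WBM_2 were written by Cell Ranger 3.1.0 and that of WBM_1 by Cell Ranger 3.0.0. The submitters' processing notes name Cell Ranger, Seurat, bcl2fastq and the mm10 build. The annotation behind the counts is not stated in these sources, nor is the authors' barcode filter. Libraries of WBM_2 held 83955414 to 95553827 UMIs, and their kept cells a median of 7436 to 7746 UMIs. The separate hashtag table of WBM_1 was not used.

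Hashtags were called per library with HTODemux of Seurat 5.3.0 (R 4.3.3) at a positive quantile of 0.99. Members with 2 hashtags were kept and are counted apart. Doublets were not otherwise removed, and leaving out the top 5% of Scrublet scores (scanpy 1.11.5) was an alternative. Summed counts were divided by summed UMIs and compared as ratios, with a floor of 3 counts, in Python 3.11.15 with NumPy 2.4.6 and SciPy 1.17.1. Gene places and V sequences were read from the GENCODE M21 transcripts of GRCm38 by gene ID. The procedure was tested on simulated data. Alternatives changed the rule, the cell filters, the hashtag call, the fold, the scaling and the libraries. Named genes were the 15 highest and 10 lowest ratios past 4 fold in each library (with a UMI in at least 20% of members for the higher ones), the 10 highest within HRO.7, 8 and 8 against the other B lineage cells, and members of the gene lists; other genes, among them those of the comparisons of HRO.7 with HRO.8 members and of the Ccl22 extremes, were chosen after their values were seen. The members and lists were chosen with earlier results of these data known. Some items are not reported here.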

Additional observations from a re-analysis of the deposited data

How the results depend on the processing

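For the main results, 54 alternatives kept the value within its error or count limit and 12 moved it. The share of members was 1.81% when all 3 genes were required and 1.64% with mitochondrial UMIs under 5%. At least 5 B lineage markers were found in 84.5% of members after thinning and in 98.5% of those with at least 5 UMIs of the rule genes. Genes past 4 fold numbered 7651 higher and 836 lower with no minimum CPM, and 108 higher and 100 lower at 8 fold. Leaving out each library in turn gave a rank correlation of 0.875 to 0.882 with the other B lineage cells, and 15 to 33 genes past 2 fold between HRO.7 and HRO.8 members. That count was 10 without cells of at least 10% neutrophil UMIs. Of 316 alternatives for named genes, 3 lost their call, and BC018473 within HRO.7 had a log2 ratio of 0.26 of the other sign. That sign comes from raising the count in members to the floor of 3, since its CPM was 0.21 in HRO.7 members and 0.53 in the other HRO.7 cells. No paired analysis was possible because the results come from no test between groups of samples. Members of other hashtags are too few for values of their own, and the shares of cells with V segments and other low genes are limited by depth.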
